A study of Mus musculus with 18 samples.

Results

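The machinery that loads, docks and fuses synaptic vesicles was examined as a list of 36 genes in RNA sequencing libraries from adult mouse brain. The list holds 14 synaptotagmins (Syt1 to Syt7, Syt9 to Syt13, Syt16 and Syt17), the vesicle glycoproteins Sv2a, Sv2b and Sv2c, the synapsins Syn1, Syn2 and Syn3, the vesicle membrane proteins Syp, Syngr1 and Syngr3, the vesicle GTPase gene Rab3a, the SNARE genes Snap25, Stx1a, Vamp1 and Vamp2, the complexins Cplx1, Cplx2 and Cplx3, the priming and active zone genes Unc13a, Rims1 and Rims2, and the vesicular glutamate transporters Slc17a6 and Slc17a7. Members were chosen by name and function, with earlier results of these data known, and each symbol matched 1 Ensembl gene among the 38561 genes counted. All 36 had at least 10 counts in at least 1 library and were among the 17545 genes tested.

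The study compared WT mice with Pcm1-/- littermates, all adult and on a C57BL/6J background (backcrossed for at least 3 generations). Tissue was dissected from 3 regions, namely frontal cortex, striatum and hippocampus. The mutant line derives from embryonic stem cells with a gene-trap insertion in Pcm1, which encodes a scaffold protein of the material around centrioles, and no other allele, Cre or agent is described for either genotype. Each of the 6 groups held 3 libraries, 18 in all, and the 3 regions were taken from the same 6 animals, so the genotype comparisons of the 3 regions are not independent of each other. In the account below n is 3 libraries per group, and the adjusted p is the Benjamini-Hochberg value over all 17545 genes from edgeR's quasi-likelihood test, called when under 0.05.

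Neurotransmitter release begins with a vesicle that a proton-driven transporter has filled; Slc17a7 (VGLUT1) and Slc17a6 (VGLUT2) do this for glutamate, the former mainly in cortical and hippocampal neurons and the latter mainly in thalamic and other subcortical neurons. RIM and Munc13 proteins dock and prime the vesicle at the active zone, the SNARE proteins syntaxin-1, SNAP-25 and synaptobrevin pull the membranes together, complexins clamp and then promote fusion, and synaptotagmins sense the calcium that triggers it. Synapsins tether the reserve vesicles, and synaptophysin, synaptogyrins and SV2 proteins are abundant components of the vesicle membrane. Striatal projection neurons are GABAergic, and the glutamatergic endings on them belong to neurons whose cell bodies, and most of whose mRNA, lie in the cortex and thalamus.

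The libraries held 24950537 to 33405081 counts on genes. For Pcm1, the 9 WT libraries held 3425 to 4919 counts and the 9 Pcm1-/- libraries 313 to 520, without overlap. Marker genes followed the dissections: 8 striatal projection neuron genes summed to 7758 to 9605 CPM (counts scaled to the size of the library) in striatum against at most 453 elsewhere, and 8 hippocampal genes summed to 1146 to 1414 CPM in hippocampus against at most 647 elsewhere. The 7 cortical glutamatergic genes summed to 829 to 910 CPM in frontal cortex, 423 to 676 in hippocampus and 43.0 to 62.9 in striatum. Some libraries stood apart. In 10 thalamic marker genes the WT hippocampal libraries summed to 903, 382 and 812 CPM and the Pcm1-/- ones to 246, 227 and 475 CPM, and WT striatum replicate 3 carried the choroid plexus gene Ttr at 5621 CPM. In hippocampus 5 choroid plexus genes summed to 2135 to 6254 CPM in WT and 220 to 4135 CPM in Pcm1-/- libraries. Members that move with these values are marked where they appear.

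In WT animals the machinery was, by mRNA, most abundant in frontal cortex. The 36 genes together took 2.24% ± 0.093 (SD) of all counts there, 1.78% ± 0.16 in hippocampus and 1.23% ± 0.031 in striatum. The mean CPM was highest in frontal cortex for 25 members, in striatum for 7 and in hippocampus for 4, and lowest in striatum for 21. Compared between genes on a per-length scale (CPM per kilobase of the principal transcript), WT frontal cortex was led by Snap25 at 2074 ± 238, Vamp2 at 725 ± 23.6, Slc17a7 at 666 ± 12.99, Syt1 at 513 ± 23.4 and Cplx2 at 416 ± 39.5. Syt10 at 1.51 ± 0.561, Sv2c at 1.54 ± 0.133, Syt9 at 2.49 ± 0.433 and Slc17a6 at 3.01 ± 0.665 were the least abundant.

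Against WT frontal cortex, WT striatum had 23 members lower and 5 higher (Sv2c, Syt10, Syt6, Syt9 and Syt2), where 41.5% of all genes were called, 20.6% as higher and 20.9% as lower. WT hippocampus had 19 members lower and 3 higher (Syt10, Slc17a6 and Syt9), where 29.8% of all genes were called (14.5% higher and 15.3% lower). Between WT striatum and WT hippocampus 9 members were higher in striatum and 18 lower, with 29.2% of all genes called (14.4% higher and 14.8% lower). The median log2 difference of the 36 members was −0.64 for striatum minus frontal cortex, −0.38 for hippocampus minus frontal cortex and −0.36 for striatum minus hippocampus, and that of all genes tested was 0.020, −0.0090 and 0.010. Syt3, Syt11, Syngr3 and Cplx2 passed the threshold in none of the 3. Some calls were lost without 1 or another of the libraries: Syt2, Syt9, Vamp1 and Rims2 for striatum against frontal cortex, Syt2, Syt13, Syp, Syn3 and Vamp2 for hippocampus against frontal cortex, and Vamp1, Vamp2 and Rab3a for striatum against hippocampus. Cell type markers also differed between the WT regions. The 8 pan-neuronal genes summed to medians of 4058 CPM in frontal cortex, 3191 in hippocampus and 2595 in striatum. The 6 oligodendrocyte genes had medians of 2037, 7930 and 9235 CPM, and the part of cell composition was not tested. In bulk tissue, fewer cells that express a gene and less of its mRNA per cell cannot be told apart.

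**Figure D1:**
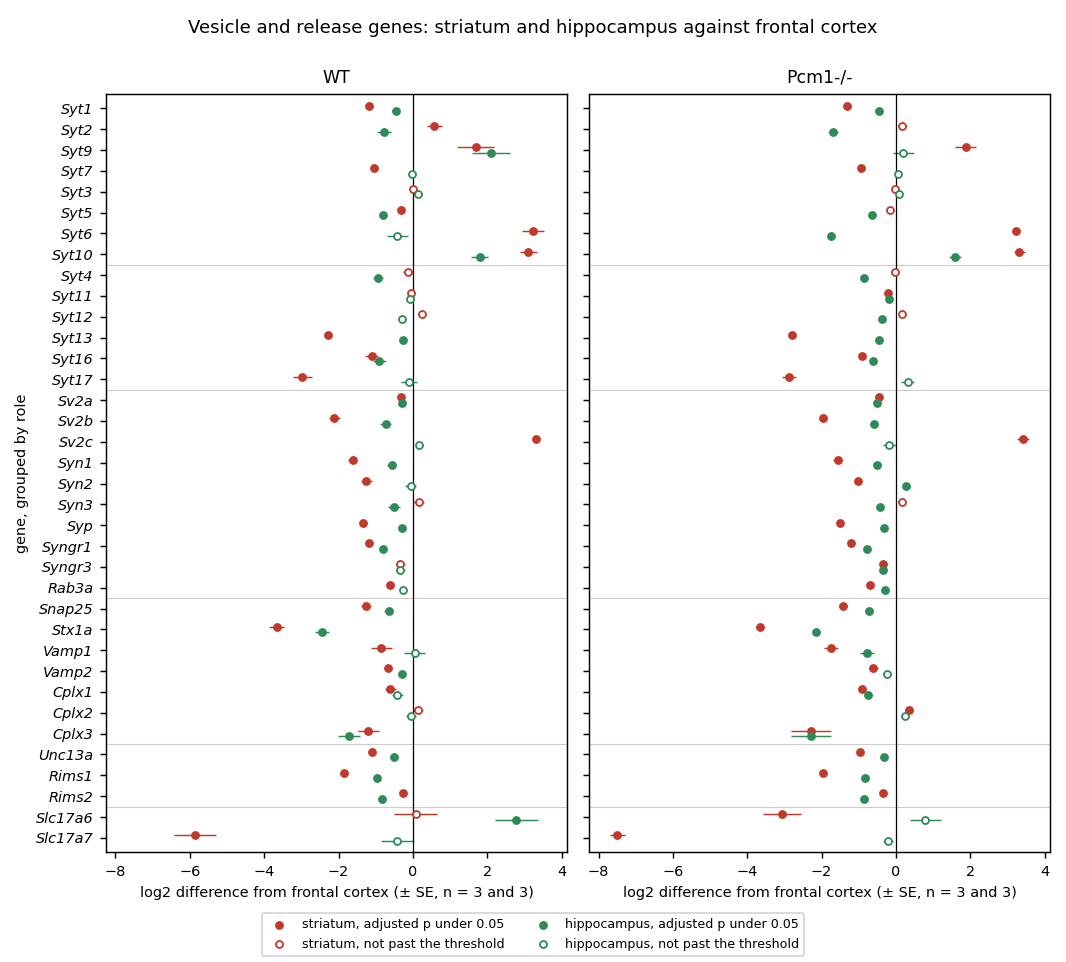
Log2 differences of the 36 genes from the frontal cortex of the same genotype (x axis, ± SE, n = 3 and 3) in striatum (red) and hippocampus (green), WT left and Pcm1-/- right, ordered by role from calcium-sensing synaptotagmins to glutamate transporters. Filled points passed an adjusted p of 0.05. Most points lie left of 0, Slc17a7 and Stx1a in striatum farthest, and Sv2c, Syt6 and Syt10 stand far to the right in striatum of both genotypes.

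Among the 8 calcium-binding synaptotagmins, region comparisons went in both directions: 4 were higher and 3 lower in WT striatum than in frontal cortex. Syt1, the main sensor for fast synchronous release in the forebrain, averaged 2471 ± 113 CPM in frontal cortex, 1816 ± 224 in hippocampus and 1089 ± 54.4 in striatum, a striatal difference of −1.18 ± 0.11 (log2 ± SE, adjusted p = 1.23e-05). Syt7, a slow sensor that acts in asynchronous release and facilitation, had a small hippocampus minus frontal cortex difference (−0.019, 95% interval −0.24 to 0.20) and was lower in striatum by −1.03 (adjusted p = 2.04e-05). Syt5 was lower in both other regions (−0.32 and −0.81), and Syt3 differed in neither beyond its spread. The 4 that were higher in striatum are low-abundance paralogs of Syt1.

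Syt6 had 199, 202 and 184 CPM in the 3 WT striatal libraries, 19.01, 21.8 and 21.9 in frontal cortex and 8.78, 13 and 24.6 in hippocampus. Every striatal library was far above all others, with a log2 difference of 3.23 ± 0.29 from the frontal cortex (adjusted p = 1.19e-05) and 3.66 ± 0.30 from the hippocampus (adjusted p = 6.78e-06). Syt10 had 20.5, 24.9 and 26.4 CPM in striatum, 8.59, 11.3 and 9.34 in hippocampus and 2.17, 2.21 and 3.98 in frontal cortex. The 3 regions did not overlap, and all 3 pairs differed: 3.10 ± 0.23 for striatum minus frontal cortex (adjusted p = 3.63e-06), 1.80 ± 0.23 for hippocampus minus frontal cortex (adjusted p = 2.83e-04) and 1.303 ± 0.21 for striatum minus hippocampus (adjusted p = 9.22e-04). Syt9, a fast sensor of the same subclass as Syt1, had 27.6, 25.4 and 38.7 CPM in striatum, 29.5, 14.01 and 79.5 in hippocampus and 8.61, 8.52 and 11.4 in frontal cortex. The hippocampal values were widely spread, and the library with the highest, replicate 3, also held the cholinergic genes Slc5a7 at 15.9 CPM and Chat at 3.71 CPM. Replicates 1 and 3, the higher pair, were also those with the higher thalamic marker sums (903 and 812 CPM against 382), and the part of either tissue in this value was not tested. Over frontal cortex, Syt9 was higher in striatum (1.69 ± 0.51, adjusted p = 0.0215, and 1.48 without striatal replicate 3, adjusted p = 0.058) and in hippocampus (2.11 ± 0.51, adjusted p = 0.0108, and 1.204 without hippocampal replicate 3, adjusted p = 0.0204). Syt2, the fast sensor of brainstem synapses and of many inhibitory interneurons, averaged 137 ± 8.25 CPM in striatum, 92.2 ± 28.3 in frontal cortex and 53.8 ± 6.19 in hippocampus. The frontal cortical libraries of Syt2 were uneven at 108, 109 and 59.6 CPM, and the low library, replicate 3, also had less of the interneuron gene Pvalb (33.1 CPM against 69.2 and 63.4).

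Among the 6 other synaptotagmins, which are not counted among the fast calcium sensors, 3 were lower in striatum than in frontal cortex and 0 higher. Syt17 had 3.46, 4.36 and 5.41 CPM in the WT striatal libraries, 26.6, 45.4 and 25.2 in hippocampus and 32.9, 30.9 and 40.2 in frontal cortex. The striatum lay below every other library, by −2.87 ± 0.25 against the hippocampus (adjusted p = 1.19e-05), and the other two regions overlapped. Syt13 went the same way, with means of 62.2 ± 3.68 CPM in striatum, 255 ± 18.3 in hippocampus and 305 ± 10.3 in frontal cortex (−2.29 for striatum minus frontal cortex, adjusted p = 3.05e-08). Syt16 was lower than in frontal cortex in both other regions (−1.10 and −0.91). Syt4, found on dense-core vesicles, was instead the hippocampus-poor member, with 166 ± 28.5 CPM there against 289 ± 29.1 in striatum and 316 ± 28.04 in frontal cortex. Syt11 was near 987 ± 26.5 CPM in frontal cortex, 953 ± 47.8 in striatum and 934 ± 16.7 in hippocampus, differences within their spread.

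Of the 10 vesicle membrane and surface genes, 7 were lower and 1 higher in striatum than in frontal cortex, and 6 were lower and 0 higher in hippocampus. The 1 higher was Sv2c, the SV2 paralog best known from the basal ganglia, with 149, 134 and 134 CPM in the 3 WT striatal libraries. It had 13.8, 15.3 and 12.9 CPM in frontal cortex and 18.02, 14.4 and 15.2 in hippocampus, so no striatal library came near the others. The log2 difference was 3.31 ± 0.11 against the frontal cortex (adjusted p = 1.72e-08) and 3.14 ± 0.10 against the hippocampus (adjusted p = 1.70e-08). Its paralog Sv2b went the other way (179.5 ± 21 CPM in striatum and 778 ± 98.5 in frontal cortex, −2.11, adjusted p = 2.52e-06). Syn1, Syn2, Syp and Syngr1 were lower in striatum by −1.62, −1.25, −1.33 and −1.19 on the log2 scale, while Rab3a, the GTPase that binds RIM on the vesicle, differed by −0.61.

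All 6 SNARE and complexin genes called in striatum, of 7, were lower than in frontal cortex. Stx1a, 1 of the 2 plasma membrane syntaxins of fast release, had 32.2, 21.7 and 20.4 CPM in striatum, 49.98, 74.8 and 49.6 in hippocampus and 322, 319 and 304 in frontal cortex. The 3 regions were fully separate, and Stx1a had the largest hippocampal deficit of the list: −3.67 ± 0.21 for striatum minus frontal cortex (adjusted p = 4.94e-07) and −2.44 ± 0.20 for hippocampus minus frontal cortex (adjusted p = 1.38e-05). Cplx3, a complexin of retinal and of some cortical neurons, had 13.02, 12.9 and 12.1 CPM in frontal cortex, 3.58, 4.94 and 3.06 in hippocampus and 8.197, 3.21 and 5.17 in striatum. All frontal cortical libraries were above all others, with a hippocampus minus frontal cortex difference of −1.72 ± 0.30 (adjusted p = 0.00166). Snap25 and Vamp2, which form the core fusion complex with syntaxin, were lower in striatum by −1.27 and −0.67. Cplx1 and Vamp1, which had low values in the same uneven WT frontal cortical library as Syt2 (replicate 3, 933, 975 and 662 and 223, 229.9 and 129.6 CPM), were lower in striatum by −0.62 and −0.85. Cplx2 was the member of this group that did not pass, at 2260.3 ± 132 CPM in striatum and 2052 ± 194 in frontal cortex (0.14, 95% interval −0.16 to 0.44). The 3 priming genes Unc13a, Rims1 and Rims2 were all highest in frontal cortex, Rims1 most so (striatum minus frontal cortex −1.85, adjusted p = 5.31e-07) and Rims2 least (−0.27, adjusted p = 0.0292).

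The glutamate transporters gave the widest range. Slc17a7 had 1918, 1986 and 1922 CPM in frontal cortex, 1307, 1743 and 1316 in hippocampus and 63.5, 10.5 and 26.4 in striatum. Every striatal library was far below the others, with log2 differences of −5.86 ± 0.56 and −5.44 ± 0.55 (striatum minus the other region, adjusted p = 1.72e-05 and 3.04e-05). The highest striatal value was in replicate 1, and without that library the differences were −6.72 and −6.30. Slc17a6 had 83.8, 56.2 and 117 CPM in hippocampus, 13.9, 14.2 and 9.29 in frontal cortex and 5.07, 5.76 and 28.2 in striatum. It was higher in hippocampus than in frontal cortex by 2.78 ± 0.58 (adjusted p = 0.0049) and lower in striatum than in hippocampus by −2.71 (adjusted p = 0.00483, and −3.98 without WT striatum replicate 3, −2.34 to −2.94 without any other single library). In both regions the libraries with more Slc17a6 were those with more thalamic marker mRNA, WT hippocampus replicates 1 and 3 and WT striatum replicate 3, and the part of that tissue in these values was not tested.

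Paralogs of a family shifted against each other between regions. As a share of the family's summed CPM per kilobase, Sv2a took 47.0% ± 3.0 and Sv2b 52.4% in WT frontal cortex, against 67.9% ± 2.5 and 21.8% in WT striatum, where Sv2c took 10.3% in place of 0.578%. With all annotated exons as the length, Sv2a held 55.6% and Sv2b 43.7% in frontal cortex, so the order of that pair depends on the length used. Among the fast sensors Syt1 held 96.98% in frontal cortex and 89.0% in striatum, with Syt2 at 2.55% and 7.85% and Syt9 at 0.472% and 3.14%. Cplx2 was the larger complexin in each region of WT animals by mean, with 51.5% in frontal cortex, 57.6% in hippocampus and 64.1% in striatum, and in frontal cortex its lead over Cplx1 (47.9%) was within the spread. In Pcm1-/- frontal cortex the order by mean was the opposite, with Cplx1 at 51.6% and Cplx2 at 47.7%. WT frontal cortex replicate 2 had that order as well, and neither gene was called between the genotypes there. The Cplx1 share in hippocampus was 39.3% to 44.5% in WT and 32.4% to 36.5% in Pcm1-/- libraries, without overlap. Rims1 held 72.2% of the RIM pair in frontal cortex and 70.2% in hippocampus but 46.3% in striatum. That order within the striatum depends on gene length: with all annotated exons as the length, Rims1 held 62.4% there and 83.3% in frontal cortex, so the shift remained and the reversal did not. Vamp2 held 89.0% to 92.3% of the synaptobrevin pair in the 3 regions.

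**Figure D2:**
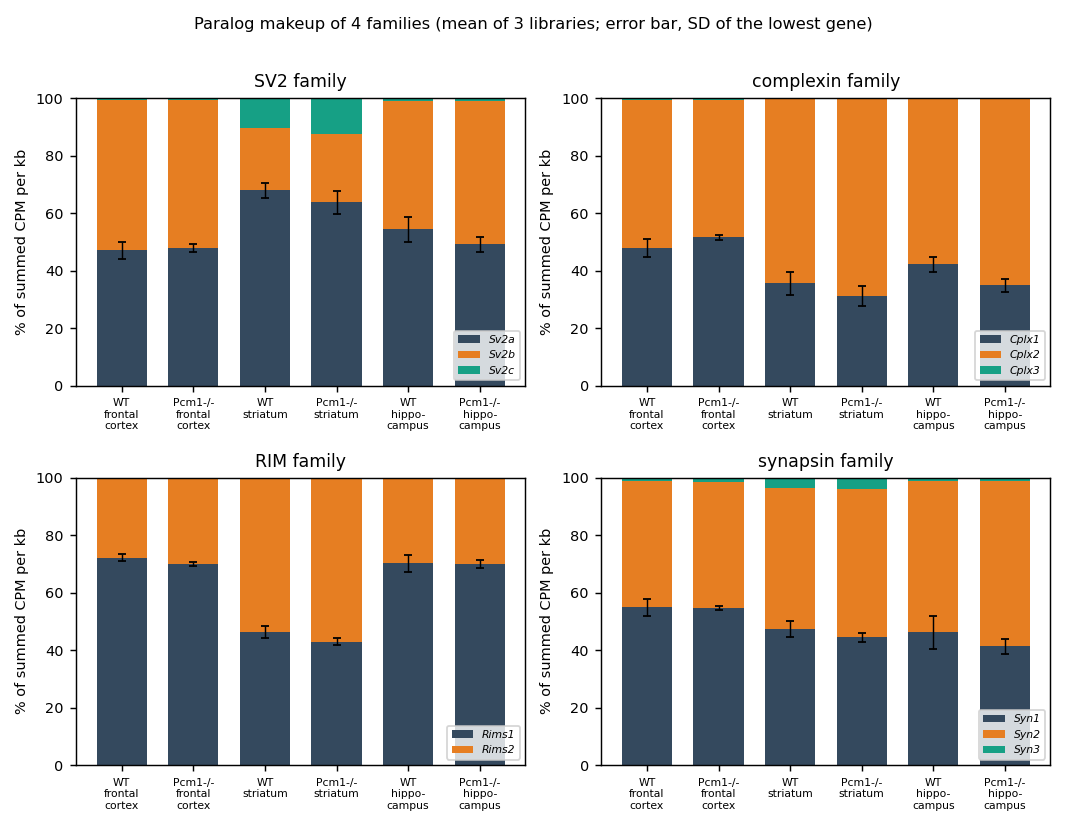
Shares of 4 paralog families in each of the 6 groups (y axis, percent of the family's summed CPM per kilobase, mean of 3 libraries, bars from 0, error bar the SD of the lowest gene in each stack). The striatal bars of both genotypes differ from the other regions in the SV2 and RIM panels, with Sv2c at 10.3% in WT and 12.4% in Pcm1-/- striatum, and in the complexin panel the Pcm1-/- hippocampus (Cplx2 at 64.9%) lies near the WT striatum.

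The same region contrasts in the 9 Pcm1-/- libraries, which come from other animals, gave 26 of the 28 WT calls for striatum against frontal cortex in the same direction (92.9% of the WT calls and 86.7% of the 30 Pcm1-/- calls). They gave 19 of 22 for hippocampus against frontal cortex (86.4% and 70.4%) and 27 of 27 for striatum against hippocampus (100% and 93.1%). Over all genes tested 91.1%, 85.8% and 93.3% of the WT calls came back in the same direction, and 54.3%, 41.5% and 45% of all genes were called in these libraries. No member was called in opposite directions in the 2 genotypes. The WT calls that were absent were Syt2 and Syt5 in the striatal contrast and Syt9, Vamp2 and Slc17a6 in the hippocampal one, where Syt9 had a log2 difference of 0.20 in Pcm1-/- against 2.11 in WT animals and Slc17a6 0.79 against 2.78.

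RefSeq promoter windows (GRCm38.p6, 250 bases before to 50 after a start site) were held for 25 of the 36 members, in 35 windows. The GC box GGGCGG, searched on both strands, was in 24 of these windows (68.6%) and in 35.7% of all 32851 windows, with a median GC content of 62.7% against 52.7%. The CRE letters TGACGTCA were in the Syn1 window only (1.79% of all windows) and TATAAA in Sv2b only (13.6% of all). A match is a description of letters and not a site of binding. The windows below belong to the members with the lowest and the highest WT striatum minus frontal cortex difference, Slc17a7 (chr7:45163671-45163970, plus strand) and Sv2c (chr13:96132528-96132827, minus strand), and to the 2 with the smallest p in the genotype comparison that follows, Syp (chrX:7638330-7638629, plus strand) and Sv2a (chr3:96180977-96181276, plus strand), printed 5′ to 3′ with GC boxes of either strand in capitals.
Slc17a7: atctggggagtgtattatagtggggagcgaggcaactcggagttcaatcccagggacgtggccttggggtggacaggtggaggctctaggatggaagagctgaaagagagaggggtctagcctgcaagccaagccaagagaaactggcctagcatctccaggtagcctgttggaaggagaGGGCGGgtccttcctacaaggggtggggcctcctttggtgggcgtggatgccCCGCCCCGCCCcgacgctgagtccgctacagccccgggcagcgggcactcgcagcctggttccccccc
Sv2c: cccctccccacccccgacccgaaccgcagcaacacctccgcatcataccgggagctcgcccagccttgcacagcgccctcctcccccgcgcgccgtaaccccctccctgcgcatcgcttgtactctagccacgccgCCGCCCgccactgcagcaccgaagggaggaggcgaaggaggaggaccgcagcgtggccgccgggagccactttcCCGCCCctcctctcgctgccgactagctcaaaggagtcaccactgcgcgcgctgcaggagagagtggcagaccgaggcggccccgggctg
Syp: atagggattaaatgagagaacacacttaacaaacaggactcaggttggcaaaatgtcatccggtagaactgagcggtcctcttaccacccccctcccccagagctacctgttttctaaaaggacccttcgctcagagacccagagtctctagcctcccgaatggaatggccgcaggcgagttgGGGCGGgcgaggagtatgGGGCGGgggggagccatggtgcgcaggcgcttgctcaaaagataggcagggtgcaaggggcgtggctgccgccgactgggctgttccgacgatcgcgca
Sv2a: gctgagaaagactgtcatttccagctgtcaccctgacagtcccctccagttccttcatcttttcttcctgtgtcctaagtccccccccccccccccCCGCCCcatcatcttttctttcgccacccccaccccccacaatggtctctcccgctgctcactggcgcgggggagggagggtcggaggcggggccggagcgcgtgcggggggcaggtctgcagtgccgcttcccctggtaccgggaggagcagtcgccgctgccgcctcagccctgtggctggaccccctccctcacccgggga
All 4 hold at least 1 GC box, so the letters searched here do not separate the cortical gene Slc17a7 from the striatal gene Sv2c.

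In the frontal cortex, Pcm1-/- animals had higher mRNA of 10 members and lower mRNA of 0. Across all genes 1.74% were called in this comparison, 1.41% as higher and 0.336% as lower, and among the 5766 genes with a mean log2 CPM of at least 5, where most members lie, 3.33% were called as higher. The 10 were the vesicle membrane genes Syp, Sv2a and Syngr3, the synaptotagmins Syt1, Syt3, Syt5, Syt11, Syt12 and Syt13, and Slc17a7. The differences were modest, from 0.26 for Slc17a7 to 0.47 for Syt12 on the log2 scale (1.199-fold to 1.38-fold). At an unadjusted p under 0.05 there were 17 members higher and 2 lower, against 7.84% and 7.47% of all genes. Of the 36, 26 had a log2 difference above 0, against 48.1% of all genes, and the median was 0.22 against −0.0066. The 3 Pcm1-/- libraries lay above all 3 WT libraries for 19 members and below them for 1, against 12% and 9.28% of all genes.

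The vesicle membrane genes Syp and Sv2a had the smallest p of the list. Syp (synaptophysin, ENSMUSG00000031144, chrX:7638471-7653256, plus strand) had 991, 937 and 977 CPM in the WT and 1303, 1204 and 1251 CPM in the Pcm1-/- frontal cortical libraries, a log2 difference of 0.36 ± 0.051 (adjusted p = 0.0174). Sv2a (ENSMUSG00000038486, chr3:96181151-96195521, plus strand), a transporter-like glycoprotein present on most vesicles, had 544, 544 and 546 CPM in WT and 688, 691 and 667 in Pcm1-/- libraries (0.32 ± 0.046, adjusted p = 0.0177). Neither gene's groups overlapped. Syngr3 (ENSMUSG00000007021, chr17:24685092-24689955, minus strand), a synaptogyrin, had 139.8, 142 and 164 CPM against 198, 199 and 191 (0.39 ± 0.069, adjusted p = 0.0338). The other members of this group were Sv2b (0.26), Sv2c (0.46, adjusted p = 0.0805), Syngr1 (0.23, adjusted p = 0.0677), Rab3a (0.08) and the 3 synapsins between −0.093 and 0.10, none past the threshold, with Syngr1 the member just outside it and Syt3 (adjusted p = 0.0442) the one just inside. With the replicate number as a block Sv2c and Syngr1 passed, where 665 of all genes did.

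Of the 8 calcium-binding synaptotagmins 3 were called. Syt1 (ENSMUSG00000035864, chr10:108497650-109010982, minus strand) had 2341, 2528 and 2544 CPM in WT and 3082, 2889.7 and 3117 in Pcm1-/- frontal cortex (0.29 ± 0.055, adjusted p = 0.0435). Syt5 had 150.3, 161 and 157 CPM against 195, 193 and 192 (0.30 ± 0.05, adjusted p = 0.0252). In both, the lowest Pcm1-/- library lay above the highest WT library. Syt3, a synaptotagmin that acts in receptor internalization at the postsynaptic side, had 55.2, 58.5 and 50.9 CPM against 71.4, 69.8 and 66.4 (0.33 ± 0.064). Syt7 had a difference near 0 (−0.016, 95% interval −0.14 to 0.11), and Syt2, Syt6, Syt9 and Syt10 had 0.46, 0.16, −0.16 and 0.31, not past the threshold.

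Of the 6 other synaptotagmins 3 were called as well. Syt12 (chr19:4445908-4477447, minus strand) had 29.8, 30.97 and 27.3 CPM in WT and 41.4, 42.9 and 37.98 in Pcm1-/- frontal cortex, 0.47 ± 0.073 with an adjusted p of 0.0214. Syt11 (chr3:88744700-88775164, minus strand) had 1009, 958 and 994 CPM against 1215, 1198 and 1208 (0.28 ± 0.047, adjusted p = 0.0252). The Pcm1-/- values of Syt11 lay closer together than the WT values, and neither gene's groups overlapped. Syt13 (chr2:92915098-92956058, plus strand) had 309, 313 and 293 CPM against 386, 401 and 366 (0.33 ± 0.055, adjusted p = 0.0298). Syt4 was close behind (0.29, adjusted p = 0.08), and Syt17 had −0.29 without passing. Exons of other genes on the opposite strand overlap 17.2% of the Syt12 exon length and 16.8% of that of Syp, and the strand setting of the counting is not given in the sources used here.

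Slc17a7 (ENSMUSG00000070570, chr7:45163949-45176142, plus strand) had 1918, 1986 and 1922 CPM in WT and 2315, 2425 and 2282 in Pcm1-/- frontal cortex, 0.26 ± 0.049 (adjusted p = 0.0396), again without overlap. The fusion and priming genes gave no call: of the 7 SNARE and complexin genes and the 3 priming genes 0 passed by edgeR, where 1.74% of all genes did, with 0 higher and 1 lower at an unadjusted p under 0.05 (7.84% and 7.47% of all genes) and 0 called by DESeq2. A count of 0 among so few genes is near the share of all genes. Their log2 differences ran from −0.14 for Cplx2 and −0.14 for Rims1 to 0.20 for Vamp1, and the 95% intervals were −0.091 to 0.27 for Snap25, −0.15 to 0.07 for Stx1a and −0.17 to 0.052 for Vamp2.

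**Figure D3:**
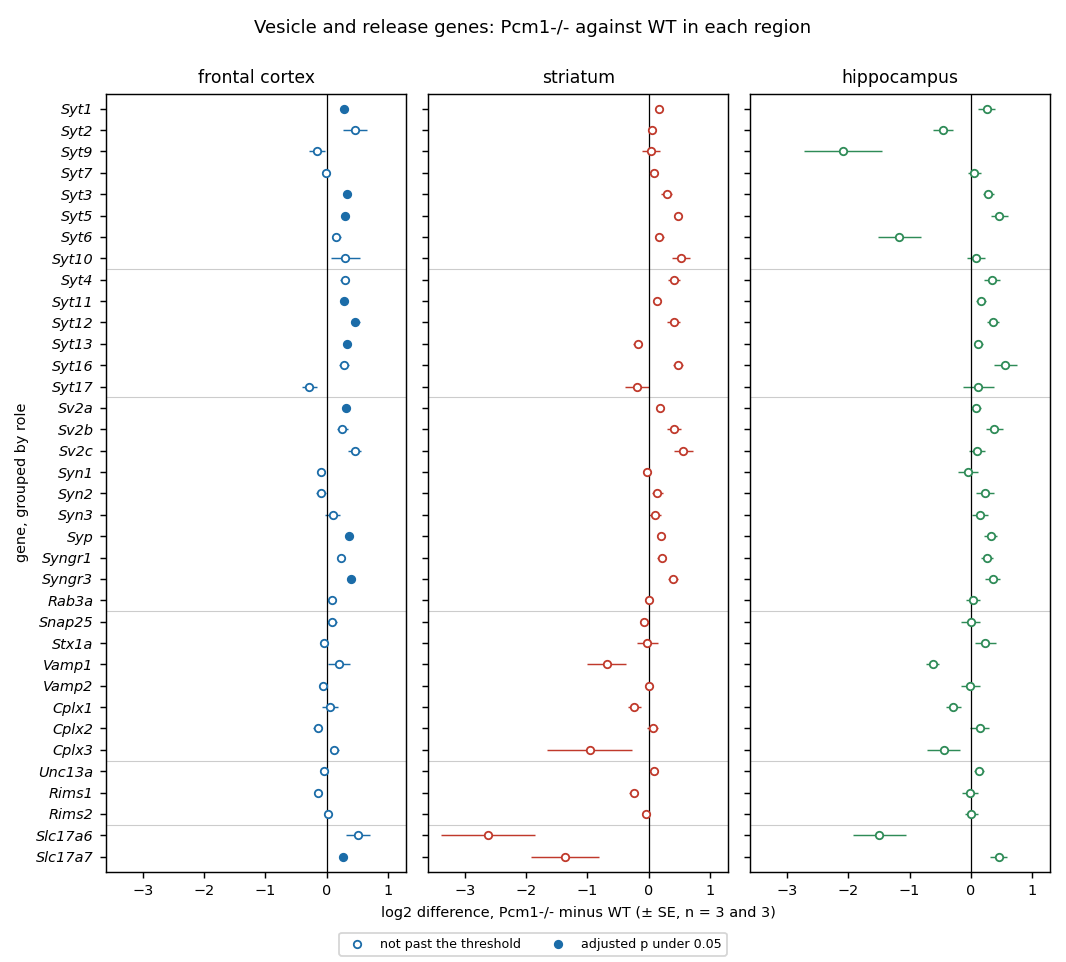
Log2 differences of the 36 genes, Pcm1-/- minus WT (x axis, ± SE, n = 3 and 3), in frontal cortex, striatum and hippocampus, ordered by role. Filled points passed an adjusted p of 0.05, which 10 genes did in frontal cortex and 0 in the other regions, and the SNARE, complexin and priming genes of the frontal cortex lie near 0 while many synaptotagmin and vesicle membrane genes lie to its right.

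The call of these 10 rested on all but 1 of the libraries. Without WT replicate 1 only Sv2a and Syp passed, without WT replicate 2 or without any single Pcm1-/- library 0 passed, and without WT replicate 3 there were 14; sequencing lane as a covariate left 0 and 1 fit of all 18 libraries left 5 (Syp, Sv2a, Syt11, Syt12 and Syt13). Over all genes the count, 306 with all libraries, was 88 and 71 without WT replicates 1 and 2, 11 to 54 without a Pcm1-/- library, 825 without WT replicate 3, 29 with lane and 176 in the shared fit. The median log2 difference of the members, 0.218 with all libraries, was 0.170 to 0.237 with 1 library left out and 0.184 with lane. DESeq2 called 14 members as higher and 0 as lower, against 3.24% and 1.64% of the 14092 genes that it tested. Under all these settings 25 to 27 members stayed above 0. Some marker sums differed between the genotypes in frontal cortex without overlap. Lower in Pcm1-/- libraries were 6 oligodendrocyte genes at 1712 to 1811 against 1903 to 2544 CPM, 5 microglial genes at 256 to 290 against 298 to 400 and 4 endothelial genes at 121 to 128 against 133 to 188, with 0 genes of these lists called. The 8 pan-neuronal genes, 0 of them called, were also lower, at 3697 to 3909 against 3969 to 4166 CPM. The 5 astrocyte genes overlapped (1069 to 1211 against 1137 to 1427 CPM, 0 called), and the 10 thalamic genes were higher in Pcm1-/- libraries, at 245 to 253 against 226 to 230 CPM, with 1 of them called (Ntng1). The part of cell composition in the vesicle gene differences was not tested.

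**Figure D4:**
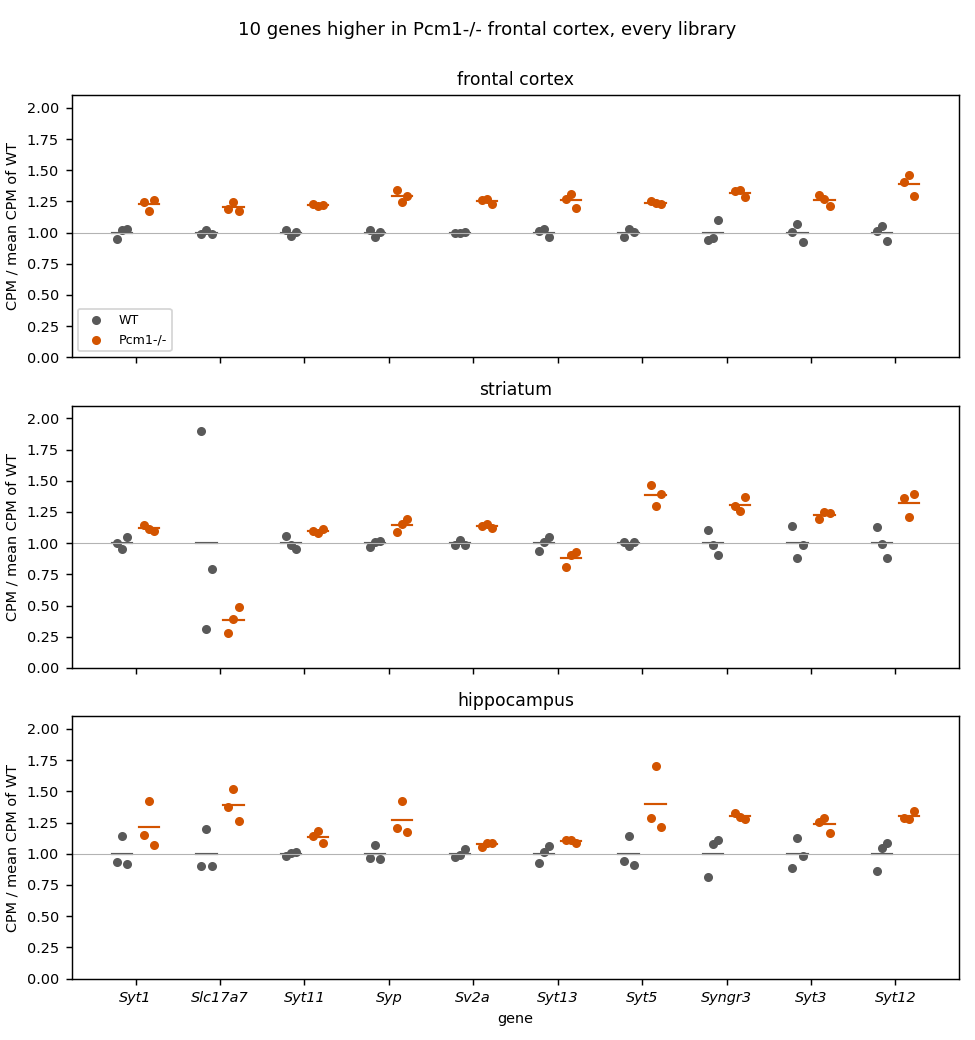
Each of the 18 libraries for the 10 genes called in Pcm1-/- frontal cortex, as CPM divided by the mean WT CPM of the region (y axis from 0; grey WT, orange Pcm1-/-; dashes, group means), in the 3 regions. In the frontal cortex every orange point lies above every grey point; in striatum Slc17a7 and Syt13 lie below the WT mean, and in hippocampus the genotypes overlap for Syt1.

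In the striatum 0 members were called by edgeR, where 0.0285% of all genes were, and 14 were higher and 4 lower at an unadjusted p under 0.05 (6.54% and 6.98% of all genes). DESeq2, which called 2.12% of the 12722 genes that it tested as higher and 1.71% as lower, called 9 members as higher and 0 as lower. These were Syt4, Syt5, Syt10, Syt12, Syt16, Sv2a, Sv2b, Sv2c and Syngr3. Of the 36, 23 lay above 0 (49.1% of all genes), the median log2 difference was 0.088, and the genotypes did not overlap for 14 members higher and 3 lower (9.6% and 9.39% of all genes). Syt5 had 126, 121 and 126 CPM in WT and 183, 161 and 173 in Pcm1-/- striatum (0.47 ± 0.062, adjusted p = 0.0921). Syt16 had 41.3, 36.3 and 34.4 CPM against 52.3, 49.2 and 54.01 (0.48 ± 0.081, adjusted p = 0.111), and Syngr3 129, 116 and 106 CPM against 152, 148 and 161 (0.39 ± 0.08, adjusted p = 0.138). None of these 3 overlapped between genotypes. Without a filter on low counts Syt5 and Syt16 passed, where 65 of 24510 genes did. The 3 WT striatal libraries were on 1 lane that held no Pcm1-/- striatal library, and the 2 factors cannot be told apart there. Oligodendrocyte and pan-neuronal marker sums were lower in the Pcm1-/- libraries, at 5596 to 9119 against 9223 to 9422 CPM and 2247 to 2460 against 2521 to 2651 CPM. So were the astrocyte sum, at 1182 to 1271 against 1333 to 1882 CPM, and the thalamic sum, at 187 to 202 against 209 to 389 CPM, and the part of all 4 was not tested.

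In the hippocampus 0 members were called by edgeR, where 0.0171% of all genes were, with 10 higher and 5 lower at an unadjusted p under 0.05 (4.84% and 5.06% of all genes) and a median of 0.12. Of the 36, 25 lay above 0 (49.8% of all genes), and the genotypes did not overlap for 13 members higher and 3 lower (10.6% and 6.46% of all genes). DESeq2 called 1 as higher (Slc17a7) and 2 as lower (Syt6 and Vamp1), with 0.747% and 0.791% of the 13781 genes that it tested. Vamp1, the synaptobrevin of fast-spiking and subcortical neurons, had 198, 218 and 186 CPM in WT and 114, 137 and 144 in Pcm1-/- hippocampus (−0.62 ± 0.11, adjusted p = 0.383). Syt12 had 20.8, 25.2 and 26.03 CPM against 30.9, 30.6 and 32.2 (0.36 ± 0.10, adjusted p = 0.405), and Slc17a6 83.8, 56.2 and 117 CPM against 21.97, 17.2 and 53.1 (−1.49 ± 0.44, adjusted p = 0.405, and 0.0492 with the replicate number as a block). The genotypes did not overlap in any of the 3. The members farthest below 0 in hippocampus were Syt9 at −2.08, Slc17a6 at −1.49, Syt6 at −1.17, Vamp1 at −0.62 and Syt2 at −0.46. The thalamic marker sum was also lower in these Pcm1-/- libraries by mean, and its defining gene Tcf7l2 had 108, 48.3 and 106 CPM in WT against 6.80, 6.80 and 51.0 in Pcm1-/- hippocampus. Among the WT hippocampal libraries Slc17a6 and Syt9 were lowest in replicate 2, which had the lowest marker sum, while Syt6 and Syt2 were lowest in replicate 1, which had the highest, and Vamp1 was highest in replicate 2. The 4 endothelial genes summed to 93.7 to 104 CPM in Pcm1-/- and 113 to 160.3 CPM in WT hippocampus. The 6 oligodendrocyte genes overlapped, at 3668 to 6002 CPM in Pcm1-/- and 4854 to 9603 CPM in WT hippocampus. The part of thalamic tissue and of cell composition in these 5 differences was not tested.

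**Figure D5:**
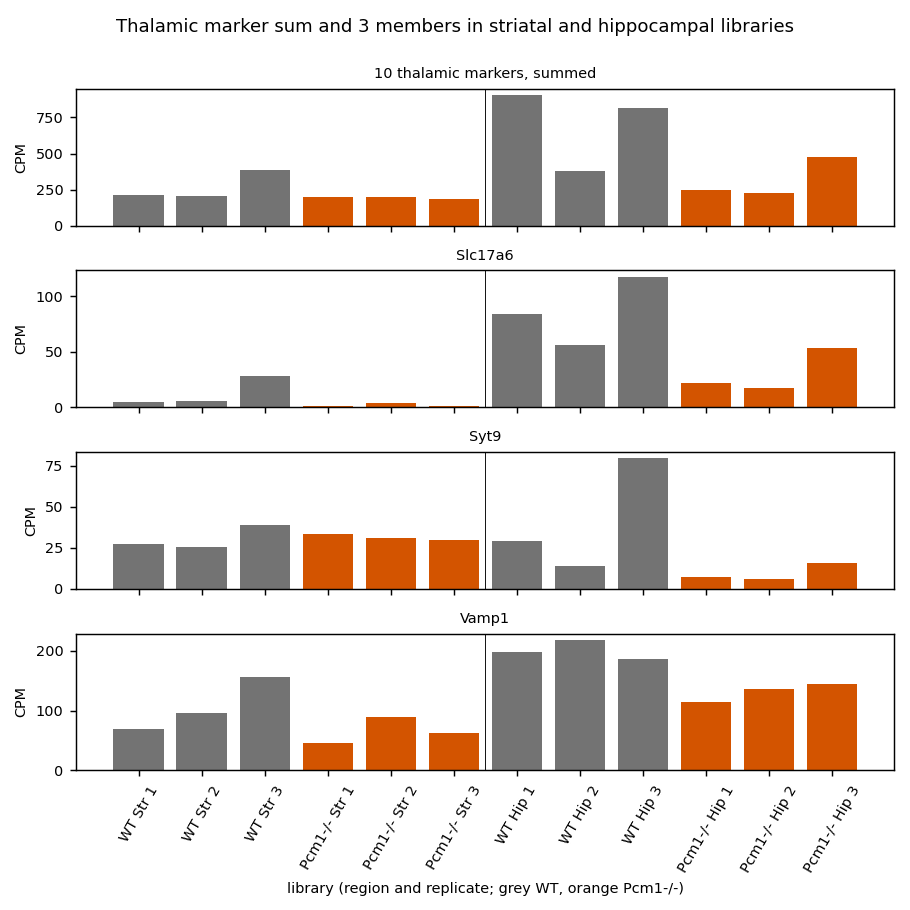
Summed CPM of 10 thalamic marker genes and CPM of Slc17a6, Syt9 and Vamp1 in each striatal and hippocampal library (bars from 0; grey WT, orange Pcm1-/-). WT hippocampus replicates 1 and 3 are highest for the marker sum, at 903 and 812 CPM, and for Slc17a6, replicate 3 is highest for Syt9, and WT striatum replicate 3 is the highest striatal library in all 4 panels.

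Across the regions, 11 members had all 3 Pcm1-/- libraries above all 3 WT libraries in each region (Syt3, Syt4, Syt5, Syt11, Syt12, Syt16, Sv2a, Sv2b, Syp, Syngr1 and Syngr3), where 1.9% of all genes did. None had them below in each region, where 0.422% of all genes did. The regions share their animals, so this count is a description of 3 animals against 3. A test of the genotype by region interaction called 0 members by edgeR (0.0114% of all genes), and 7 members had an unadjusted p under 0.05, where 5.54% of all genes did. DESeq2's likelihood ratio test called 3 (Syt13, Sv2a and Syt6) and 0.649% of the 14474 genes that it tested. The genotype differences of most members were therefore not shown to differ between regions, and those of Sv2a were 0.32 ± 0.046, 0.19 ± 0.061 and 0.087 ± 0.075 in frontal cortex, striatum and hippocampus.

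Of 60 further genes of release, vesicle cycling and active zone scaffolds, 59 were tested. In the frontal cortex 3 were higher in Pcm1-/- animals and 0 lower, against 1.41% and 0.336% of all genes: Scamp5 at 590.4 ± 12.8 against 447 ± 16.1 CPM (0.39 ± 0.051, adjusted p = 0.0125), Scamp1 at 369 ± 13.1 against 286 ± 21.8 (0.36 ± 0.065, adjusted p = 0.0366) and Cadps2 at 161 ± 9.101 against 118 ± 11.99 (0.44 ± 0.079, adjusted p = 0.0367). Scamp1 and Scamp5 are secretory carrier proteins of vesicle membranes, and Cadps2 primes dense-core vesicles. In the striatum and the hippocampus 0 of the 59 were called by edgeR, with 8 higher and 5 lower at an unadjusted p under 0.05 in striatum (6.54% and 6.98% of all genes) and 5 higher and 5 lower in hippocampus (4.84% and 5.06%). The 10 genes of vesicle endocytosis, such as Dnm1 and Amph, held 0 calls in each region.

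Between regions of WT animals, 37 of the 59 were lower and 10 higher in striatum than in frontal cortex, where 20.9% and 20.6% of all genes were. In hippocampus 21 were lower and 8 higher than in frontal cortex (15.3% and 14.5% of all genes), and 27 were lower and 8 higher in striatum than in hippocampus (14.8% and 14.4%). The calcium-binding Doc2 pair was exchanged, with Doc2a at 33.4 ± 2.49 CPM in frontal cortex and 1.48 ± 0.237 in striatum (−4.50) and Doc2b at 13.3 ± 1.85 and 159 ± 10.8 (3.58). In the hippocampus Doc2b was higher than in frontal cortex by 3.36 and Doc2a lower by −2.39. Munc13-3, encoded by Unc13c, and the transporter VGLUT3, encoded by Slc17a8 and carried by cholinergic interneurons, were higher in striatum by 2.89 and 2.34. The GABA transporter gene Slc32a1 was higher in striatum than in hippocampus by 2.25, and Cadps2 and the liprin gene Ppfia2 were lower by −3.01 and −1.83. Rims3, Rims4 and Rab3b were lower in hippocampus than in frontal cortex by −1.44, −1.55 and −1.37. The largest adjusted p among these region differences was 0.000149, for Rims3.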

How the data were processed

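Libraries were made with a KAPA stranded mRNA kit from RNA of frozen tissue. According to the submitters' processing notes and the study's methods, reads were trimmed with Trim Galore and cutadapt, aligned to GrCm38r73 with STAR, kept when they had a single position, and counted per gene with HTSeq; versions and strand setting are not given in the sources used here. The authors deposited raw counts, 1 file per library, with 24950537 to 33405081 counts on genes and 86.8% to 89.2% of the reads in each file assigned. Rows that name no gene were left out.

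Genes with at least 10 counts in any of the 18 libraries were kept, as in the study's methods, and tested with edgeR 4.0.16 (TMM, quasi-likelihood, R 4.3.3) in the 6 libraries of a region for genotype, in the 9 WT libraries for region, and in all 18 for the interaction. The SE was the absolute log2 fold change over the root of F. CPM used TMM library sizes over all 18, and lengths came from GENCODE M21 (GRCm38), which also gave symbols and coordinates. In a simulation of the frontal cortex comparison over 17545 genes, 58% of genes changed by 0.5 and 93% of those changed by 1 on the log2 scale were recovered, against 28% and 80% for striatum and 17% and 75% for hippocampus. False calls made up 2.58%, 5.26% and 13.2% of the simulated calls.

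Members and lists were chosen with earlier results of these data known. Values in every library were given for members called in a genotype comparison, the 3 smallest p in each, and the 5 largest differences in each WT region comparison, and of the further lists for genes called by genotype and the 5 largest differences per region comparison, by means. Alternatives were DESeq2 1.42.0, its size factors, other filters, thresholds, fits, blocks, lane and each library left out. The region fits did not include the animal, which was tried as a block. Animals were read from tags in the file names, since the labels do not say which libraries share one. Replicates differed beyond counting noise in all 18 pairs within groups (chi-square per degree of freedom 6.61 to 54.9). Deviations from the group means had a median correlation between regions of 0.280 in WT and 0.159 in Pcm1-/- libraries with the same tag, and −0.164 and −0.078 with different tags.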

Additional observations from a re-analysis of the deposited data

Results flagged for a closer look

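Syt13, Syt6 and Slc17a6 were picked out because all Pcm1-/- libraries lay on one side of the WT libraries in 1 region and on the other side in another. The share of all genes with such a pattern was not counted. Within 1 region, 6.46% to 12% of all genes had the genotypes apart in a given direction. The interaction tests below are on genes picked for this same pattern. Syt13 had a log2 difference, Pcm1-/- minus WT, of 0.33 in frontal cortex, −0.18 in striatum and 0.13 in hippocampus. Its interaction of genotype with region had an adjusted p of 0.309 by edgeR, 0.24 with the animal as a block and 0.000471 by DESeq2's likelihood ratio test. Syt6 had 0.16 in frontal cortex and −1.17 in hippocampus (interaction adjusted p = 0.383 by edgeR and 0.0101 by DESeq2). Slc17a6 had 0.51 in frontal cortex, −2.63 in striatum and −1.49 in hippocampus (interaction adjusted p = 0.587 by edgeR and 0.238 by DESeq2). In striatum Slc17a6 had 5.07, 5.76 and 28.2 CPM in WT and 1.29, 3.85 and 1.09 CPM in Pcm1-/- libraries, and the high library, WT replicate 3, also had the highest striatal thalamic marker sum (389 CPM against 213 and 209 in the other WT libraries). The thalamic marker sum in hippocampus was 903, 382 and 812 CPM in WT and 246, 227 and 475 CPM in Pcm1-/- libraries, and its part was not tested. WT replicate 1 had the highest sum and the lowest Syt6 of the WT libraries.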

How the results depend on the processing

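The count of 10 members higher in Pcm1-/- frontal cortex (306 genes called) was 5 when all 18 libraries shared a fit (176 genes). It was 0 when lane was a covariate (29 genes) and 0 to 14 with 1 library left out (11 to 825 genes). The 0 striatal calls became 9 with DESeq2 (488 genes called) and 2 without a low-count filter (65 of 24510 genes). At an adjusted p under 0.1 they became 1 (Syt5, with 23 genes called). The 0 hippocampal calls became 1 higher and 2 lower with DESeq2 (212 genes called). In 1 fit of all 18 libraries they became 2 higher (Syt5 and Syp) and 2 lower (Syt6 and Syt9), with 205 genes called. They became 1 lower with the replicate block (Slc17a6, 9 genes called) and 1 lower with lane (Syt9, 2 genes called). Interaction calls went from 0 to 3 with DESeq2. With 1 library left out, striatum against frontal cortex in WT gave 3 to 5 members higher and 21 to 23 lower (5 and 23 with all), hippocampus against frontal cortex 3 higher and 15 to 19 lower (3 and 19), striatum against hippocampus 9 to 10 higher and 15 to 18 lower (9 and 18), and the other genotype counts stayed at 0. The 5 striatal calls above frontal cortex were 3 without WT striatum replicate 3, and 3 without replicates 1 and 3 together, an alternative chosen after seeing the data that leaves 1 striatal library, assumed to vary like the other WT groups. With the animal as a block, the members called between WT regions were 29, 25 and 27 (28, 22 and 27 without it) and the genes 8446, 6492 and 6160 (7289, 5230 and 5126). At 2-fold or more, 20 members were called for striatum against frontal cortex, where 2915 of all 17545 genes were. For hippocampus against frontal cortex 5 members were called, 2 of them lower, with 1967 of all genes. In striatum against hippocampus 4 were higher and 10 lower, with 2112 of all genes called. For single named genes, 338 values under an alternative kept direction and side of the threshold, 65 lost and 7 gained a call, and 0 reversed. Lane could not be fitted in striatum.

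The labels do not say what a replicate number stands for, and same-numbered WT and Pcm1-/- libraries had correlations of their deviations of 0.043, 0.260 and 0.197 in frontal cortex, 0.178, −0.156 and −0.269 in striatum and 0.0955, 0.507 and 0.194 in hippocampus. In the frontal cortex, but not in the other regions, every library correlated best with its own number. Counts on Y-chromosome genes were 3064 to 4393 in the libraries of 1 animal per genotype and 67 to 112 in all others. Those animals share number 2 in frontal cortex and hippocampus but are WT 3 and Pcm1-/- 2 in striatum (r = 0.388), so the number partly follows sex, which the labels do not give. The replicate block gave 13 members higher in frontal cortex, adding Syt4, Sv2c and Syngr1, where 665 of all 17545 genes were called. It gave 0 members in striatum, where 3 genes were called. Depth was even, and members under 5 CPM in a group, such as Cplx3 in striatum, rest on few counts.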

Other observations

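When the 36 members were sorted by whether the protein spans the membrane, a division made after the values were seen and therefore given without a test, all 10 frontal cortical calls were among the 20 genes for proteins with transmembrane segments translated into the membrane (synaptotagmins other than Syt16 and Syt17, SV2 proteins, synaptophysin, synaptogyrins and glutamate transporters). Of all genes 1.41% were called as higher there. DESeq2 also called Syt16, which is outside this class, in frontal cortex and striatum. Of these 20, 18 had a log2 difference above 0 in frontal cortex, 17 in striatum and 16 in hippocampus, with medians of 0.31, 0.20 and 0.21. Of all genes 48.1%, 49.1% and 49.8% lay above 0. The lowest of the 20 were at −2.63 in striatum and −2.08 in hippocampus. At an unadjusted p under 0.05, 16 were higher and 0 lower in frontal cortex, 13 and 3 in striatum, and 9 and 4 in hippocampus. The shares of all genes were 7.84% and 7.47%, 6.54% and 6.98%, and 4.84% and 5.06%. Of the 13 genes for proteins with no membrane span (such as Snap25, the synapsins, complexins, Rab3a and RIMs), 7, 5 and 8 lay above 0, with medians of 0.024, −0.025 and 0.032. The 3 tail-anchored SNARE genes Stx1a, Vamp1 and Vamp2 had 1 above 0 in each region.

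Rims3 and Unc13c, genes of the active zone, had 118 ± 24.3 and 35.2 ± 10.6 CPM in WT hippocampus and 56.3 ± 20.4 and 16.7 ± 3.97 in Pcm1-/- hippocampus (log2 differences of −1.09 and −1.09, both with an adjusted p of 0.391 by edgeR). They were named after their values were seen. The thalamic marker sum was lower by mean in the same libraries (903, 382 and 812 CPM in WT against 246, 227 and 475 in Pcm1-/-), and its part was not tested.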
